A study of Mus musculus with 35 samples.

Results

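The 10 hypothalamic neuropeptide genes were followed through RNA-seq libraries of 6 tissues from adult C57BL/6J mice. The 10 members were taken by gene symbol, out of 55356 genes in the count table, and are Hcrt, Pmch, Oxt, Avp, Pomc, Agrp, Npy, Gnrh1, Trh and Crh. All 10 had a row of counts, of which Avp and Crh were counted under a locus built from full-length Iso-seq transcripts and the other 8 under their ENSEMBL gene. The 29 libraries were made from untreated wild-type tissue and fell into 10 groups, namely female and male brain, cerebellum, heart and colon, ovary, and testis, with 3 libraries each except male heart with 2. The labels name the brain without saying which regions were taken, list the cerebellum as a separate tissue, give the age only as adult, and do not say which libraries came from the same animal. In these bulk tissues, fewer cells of a type and less RNA per cell cannot be told apart.

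Neuropeptides are cut from larger precursor proteins in the secretory pathway, stored in dense-core granules and released to act on G-protein-coupled receptors. Many of the precursor genes are transcribed at very high levels by small, compact groups of hypothalamic neurons. Oxytocin and vasopressin come from magnocellular neurons of the paraventricular and supraoptic nuclei, orexin (Hcrt) and melanin-concentrating hormone (Pmch) from the lateral hypothalamus, POMC and AgRP from opposed neurons of the arcuate nucleus, and the releasing hormones of Gnrh1, Trh and Crh reach the pituitary gland through portal blood. Npy, Crh and Trh are also made by neurons outside the hypothalamus, Npy and Crh by cortical interneurons among them.

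Oxt and Avp are neighbouring genes that point towards each other, at 2:130576173-130577054 on the plus strand and 2:130580621-130582573 on the minus strand (GRCm38, chromosome:start-end). Their precursors both carry a neurophysin, and a stretch of coding sequence was identical in both transcripts. It is shown here, from the GENCODE transcripts, because a read that lies wholly inside it cannot be placed uniquely, and the study kept uniquely mapped reads only. The capitals mark the 127 identical bases, with 10 bases on either side in lower case. The run crossed from exon 1 into exon 2 in both genes and lay at 2:130576328-130576715 in Oxt and 2:130581133-130582411 in Avp, intron included.
Oxt: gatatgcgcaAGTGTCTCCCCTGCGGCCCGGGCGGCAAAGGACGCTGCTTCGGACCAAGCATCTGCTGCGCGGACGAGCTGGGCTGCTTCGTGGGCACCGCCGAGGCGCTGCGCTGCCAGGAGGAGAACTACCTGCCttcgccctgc
Avp: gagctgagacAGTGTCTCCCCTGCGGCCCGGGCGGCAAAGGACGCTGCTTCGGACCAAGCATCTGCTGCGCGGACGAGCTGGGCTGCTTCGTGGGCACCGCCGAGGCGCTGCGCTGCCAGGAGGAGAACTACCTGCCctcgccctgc
The run made up 23.6% of the 537-base Oxt transcript and 22.0% of the 577-base Avp transcript. No other pair among the 10 members shared a window of 30 bases. Counts of Oxt and Avp may therefore be too low, and the size of this loss was not measured.

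RefSeq start sites were found for 7 of the 10 members (Hcrt, Pmch, Oxt, Avp, Pomc, Npy and Trh). The 150 bases before the start (RefSeq, GRCm38.p6) are printed for the 4 members whose levels differed most between brain libraries and for Pomc. Capitals mark TATAAA in Hcrt, Pmch and Pomc and the longest run shared by Oxt and Avp, CAGACATAAA, in those genes.
Hcrt, 11:100762932-100763081, minus strand: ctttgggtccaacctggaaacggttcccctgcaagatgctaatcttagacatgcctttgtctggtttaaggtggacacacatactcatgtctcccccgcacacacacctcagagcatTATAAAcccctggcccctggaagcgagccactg
Pmch, 10:88090922-88091071, plus strand: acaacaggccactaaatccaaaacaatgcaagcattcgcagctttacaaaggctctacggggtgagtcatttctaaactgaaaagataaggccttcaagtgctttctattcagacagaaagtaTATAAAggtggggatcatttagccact
Oxt, 2:130576019-130576168, plus strand: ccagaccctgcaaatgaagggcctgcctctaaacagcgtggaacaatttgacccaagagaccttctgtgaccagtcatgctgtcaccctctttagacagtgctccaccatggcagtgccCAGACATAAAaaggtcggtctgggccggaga
Avp, 2:130582589-130582738, minus strand: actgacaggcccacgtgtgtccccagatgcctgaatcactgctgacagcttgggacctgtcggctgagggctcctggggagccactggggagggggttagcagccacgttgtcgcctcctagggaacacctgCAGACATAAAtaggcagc
Pomc, 12:3954795-3954944, plus strand: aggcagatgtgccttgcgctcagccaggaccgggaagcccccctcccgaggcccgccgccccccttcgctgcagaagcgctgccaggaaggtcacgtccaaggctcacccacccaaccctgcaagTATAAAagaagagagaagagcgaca
TATAAA, searched on both strands, was in 7.57% of 32851 windows of this length. CAGACATAAA was in 13 of them (0.0396%), and lay from base -31 to -22 before the Oxt start and from -18 to -9 before the Avp start. The cyclic AMP response element TGACGTCA, present in 1.36% of windows on either strand, was in none of the 7 members' windows. These matches describe the letters only.

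Library totals ran from 11742417 to 36194255 counts, and those of the 6 brain libraries from 24403774 to 36194255. Among cell type markers, all 8 forebrain genes were higher in brain than in cerebellum and all 7 cerebellar genes lower. Libraries of the same tissue differed in marker genes. Female brain replicate 1 had 26.0 FPKM (CPM, a gene's share of the library's counts scaled to 1e+06, per kilobase of exon) summed over 11 pituitary markers, against 0.330 to 2.20 FPKM in the other brain libraries, and the lowest forebrain sum, 60.1 FPKM against 83.4 to 119 FPKM, with 17.4 FPKM of 10 midbrain and hindbrain markers against 2.46 to 6.04 FPKM. Female heart replicate 3 had 55460 counts of Nppa, an atrial hormone gene, against 706 to 1883 in the other heart libraries, and 260251 counts of Myh6, the main cardiac myosin, against 507096 to 679425. Without female brain replicate 1 the calls of members against cerebellum did not change. Where leaving out 1 library changed a member's call, or moved a printed log2 difference or limit that was called by over 1.5 times, the value without it is given. This covers comparisons with brain and between the sexes. Contrasts between tissues other than brain were not refitted without single libraries. Genes of the other lists are given with all libraries.

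**Figure D1:**
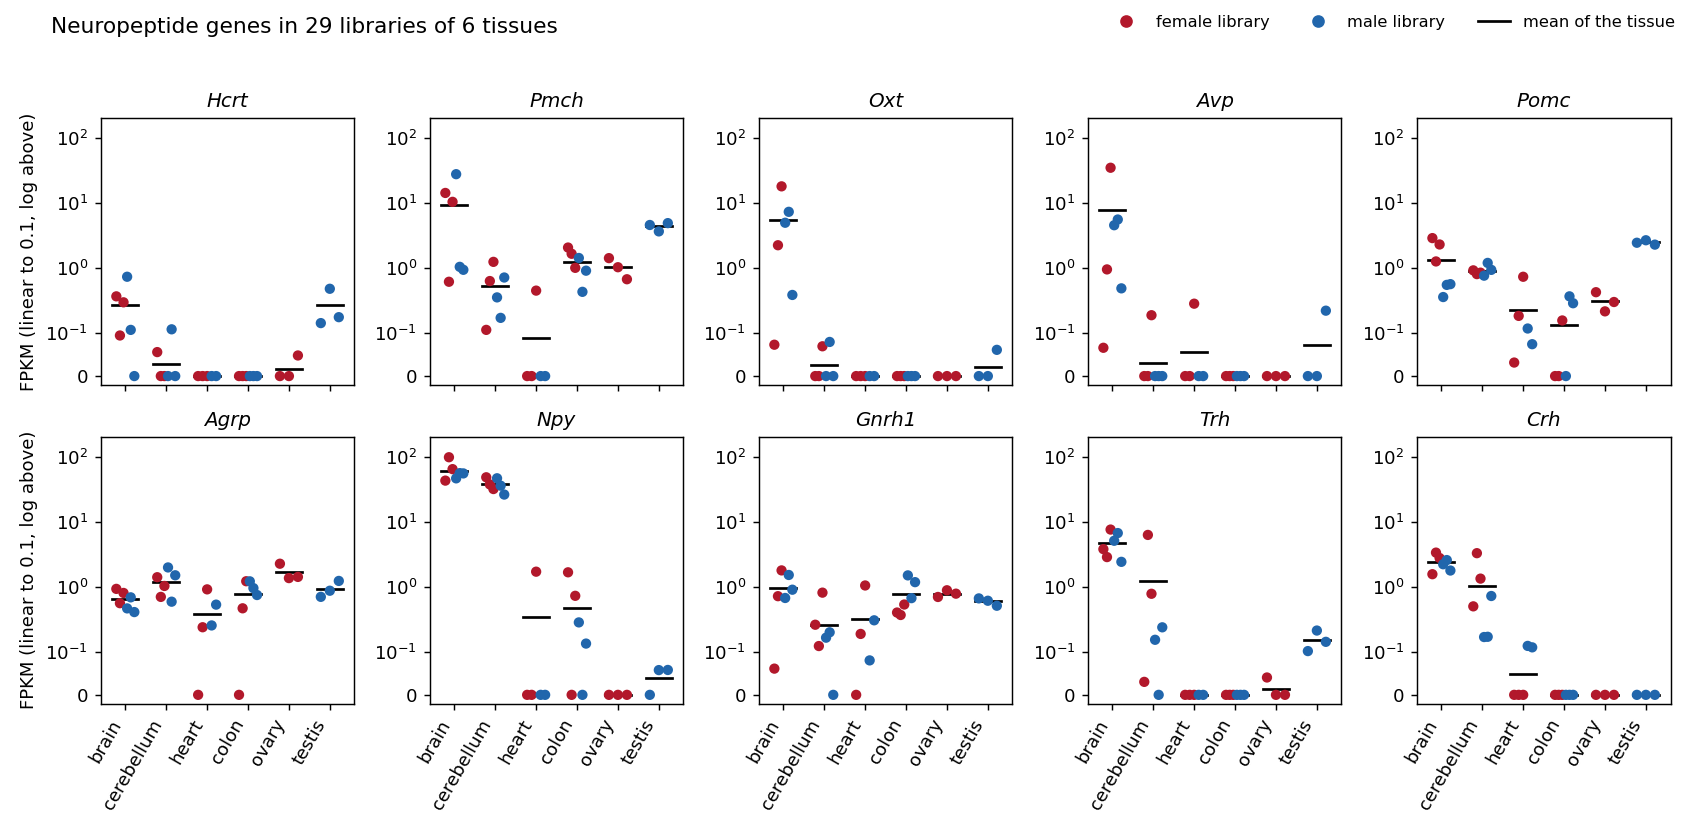
Level of each of the 10 genes in FPKM (vertical axis, linear up to 0.1 and logarithmic above) in each of 29 libraries of 6 tissues (horizontal axis); points are libraries coloured by sex and bars are tissue means. Npy had the highest mean in brain, 60.2 FPKM, Oxt and Avp were near 0 outside the brain, and Agrp and Gnrh1 lay between 0.258 and 1.67 FPKM in every tissue mean.

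Compared per length, the brain means ran in the order Npy (60.2 ± 19.8 FPKM, SD, n = 6), Pmch (9.10 ± 10.7), Avp (7.68 ± 13.4), Oxt (5.46 ± 6.68), Trh (4.71 ± 2.08), Crh (2.36 ± 0.657), Pomc (1.31 ± 1.04), Gnrh1 (0.935 ± 0.619), Agrp (0.636 ± 0.200) and Hcrt (0.265 ± 0.264). The SD exceeded the mean for Pmch, Avp and Oxt, so that their places are not separated from each other or from Trh, Crh and the members below. Their medians were 5.68 FPKM for Pmch, 3.57 for Oxt and 2.73 for Avp, against 4.41 for Trh and 2.38 for Crh. Brain held the highest tissue mean for 7 members, testis for Pomc and ovary for Agrp. For Hcrt brain and testis were level, at 0.265 and 0.263 FPKM, and without male brain replicate 1 the brain mean was 0.172 FPKM.

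The first comparison asked which of these genes set the brain apart from the cerebellum. Of the 9 members that passed the filter on low counts, 6 were higher in brain, namely Avp, Oxt, Pmch, Trh, Gnrh1 and Crh. None was lower. Over all 29911 genes tested, 15.3% were higher in brain and 10.8% lower. The median log2 difference was 2.22 over the 9 members and 0 over all genes tested. Hcrt did not pass the filter and was tested alone. Oxt and Avp passed it through brain libraries only, since no library outside the brain had over 4 counts of either. Their place among the 9 members therefore already required high brain counts, and the share of members called is partly set by the filter.

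**Figure D2:**
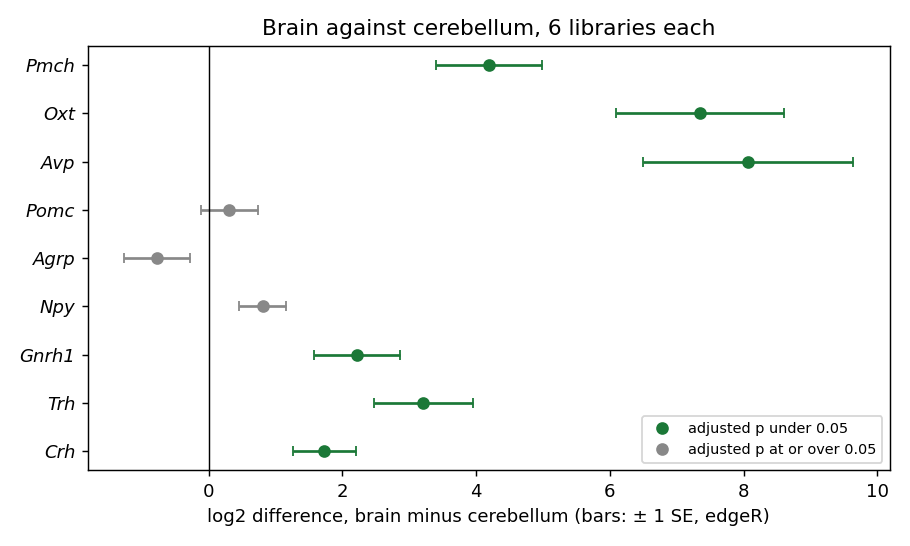
Log2 difference of brain minus cerebellum (horizontal axis) for the 9 members tested, with bars of ± 1 standard error from edgeR over 6 libraries of each tissue; green points have an adjusted p under 0.05. Avp (8.07) and Oxt (7.34) lie farthest from 0, and Pomc, Npy and Agrp are grey.

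Oxt, the precursor of oxytocin, had 1, 34 and 262 counts in the 3 female brain libraries and 68, 141 and 5 in the 3 male ones. Avp, the precursor of vasopressin, the antidiuretic hormone, had 1, 16 and 561 counts in female brain and 69, 119 and 7 in male brain. Both genes stood highest in female brain replicate 3 and lowest in female brain replicate 1, at 1 count each, and the 6 libraries fell in the same order for both. In the cerebellum the 6 libraries together held 2 counts of Oxt and 3 of Avp.

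Brain exceeded cerebellum by 7.34 ± 1.25 (log2 difference ± SE, adjusted p = 0.000288, edgeR) for Oxt and by 8.07 ± 1.57 (adjusted p = 0.000938) for Avp. With so few cerebellar counts these fitted values depend on the prior count. The ratio of pooled CPM was 219 for Oxt (95% exact interval 60.4 to 1817) and 221 for Avp (75.4 to 1075), and these intervals cover counting error only. Both values leaned on female brain replicate 3. Without it the ratio was 128 for Oxt (35.0 to 1060) and 72.5 for Avp (24.5 to 354), and the log2 difference 6.07 ± 1.08 (adjusted p = 0.000600) and 5.81 ± 1.25 (adjusted p = 0.00292). The groups nevertheless overlapped, because female brain replicate 1 was no higher than single cerebellar libraries for either gene.

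Outside the nervous system Oxt was at 0 counts in all 5 heart, 6 colon and 3 ovary libraries and had 1 count in testis. With the limit of 3 counts over the group that a count of 0 allows, brain was at least 111-fold higher than heart, 92.4-fold higher than colon and 69.4-fold higher than ovary. Without female brain replicate 3 these limits were 60.4, 50.3 and 37.8. Avp was at 0 in colon and ovary, where brain was at least 144-fold and 108-fold higher, or 43.2-fold and 32.5-fold without female brain replicate 3. These limits use the mean of the brain libraries. For both genes 5 of the 6 brain libraries stood above the ovary limit, and female brain replicate 1 did not. Its 4 heart counts were all in female heart replicate 3 and its 4 testis counts all in testis replicate 3. Brain was above testis by 6.11 ± 1.76 for Avp (log2, adjusted p = 0.00525), a call that DESeq2 did not make (adjusted p = 0.13), and by 3.85 without female brain replicate 3 (adjusted p = 0.0172) and 9.52 without testis replicate 3 (adjusted p = 0.0133). It was above testis by 7.33 ± 1.72 for Oxt (adjusted p = 0.00108), and by 6.06 ± 1.45 (adjusted p = 0.00153) without female brain replicate 3. With 1 testis count of Oxt, the ratio of pooled CPM was 274 (95% exact interval 49.0 to 10863), or 160 (28.4 to 6333) without that library.

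The ratio of Oxt to Avp in FPKM ran from 0.517 in female brain replicate 3 to 2.35 in female brain replicate 2, while the level of Oxt itself ran from 0.0724 to 17.9 FPKM. Over the 6 brain libraries the log2 CPM of the pair had a Pearson r of 0.97 and a Spearman rho of 1, a description over libraries that share no stated animal. Over all 29 libraries each was the gene most like the other (Pearson r = 0.97), among 29911 genes. The next for Oxt were Gm14015 (0.92) and Gm43487 (0.91). For Avp they were Six6 (0.89), a transcription factor of the ventral forebrain and hypothalamus, and Sfta3-ps (0.87). Six6 had 23 counts in female brain replicate 3, 12 in male brain replicate 1 and 6 in male brain replicate 2, and 0 in the other brain libraries. Those were the 3 libraries with the highest Oxt and Avp. Six6 was named for its correlation with Avp, so this overlap is no separate result. Isl1 and Nkx2-1, among other hypothalamic factors, had counts in all 6 brain libraries.

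**Figure D3:**
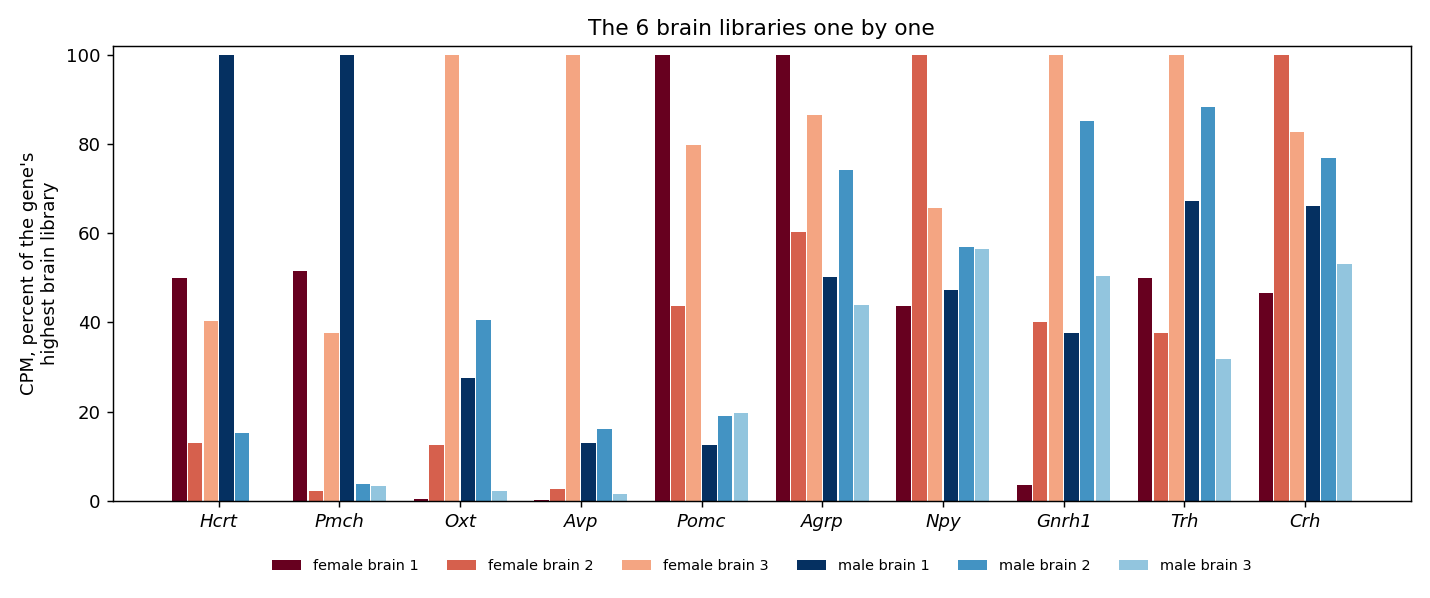
CPM of each gene in each of the 6 brain libraries, as a percentage of the gene's highest brain library (vertical axis, from 0); bars are single libraries, coloured by sex and replicate. Oxt and Avp stand highest in female brain 3, Hcrt and Pmch in male brain 1, and Npy, Trh and Crh keep over 30% of their highest level in every library.

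Pmch, the precursor of melanin-concentrating hormone, which acts on feeding and sleep, had 273, 13 and 211 counts in female brain and 530, 28 and 17 in male brain. The libraries split into 3 with over 200 counts (male brain replicate 1 and female brain replicates 1 and 3) and 3 with fewer than 30. Hcrt, the precursor of the wake-promoting orexins, had 7, 2 and 6 counts in female brain and 14, 3 and 0 in male brain. Its 3 highest libraries were the same as for Pmch and in the same order, at counts near the floor. Oxt and Avp did not share that order, since female brain replicate 1, the second for Pmch, was the lowest of the 6 for them.

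Markers of another tissue were also highest in the same 3 brain libraries. The 5 markers of choroid plexus and ependyma, all detected in each library, summed to 456 FPKM in male brain replicate 1 and to 1004 and 1578 FPKM in female brain replicates 1 and 3, and to 27.5 to 46.9 FPKM in the others. The cerebellum libraries, with 2 to 25 counts of Pmch, held 1038 to 3899 FPKM of the same markers. The 16 hypothalamic transcription factors summed to 18.8 FPKM in male brain replicate 1, to 15.4 and 19.6 FPKM in female brain replicates 1 and 3, and to 14.8 to 17.7 FPKM in the others. Pou3f2, Nkx2-2 and Six3 made up most of that sum, and single factors differed far more between brain libraries, with 4 to 98 counts of Otp, 1 to 56 of Sim1 and 0 to 32 of Bsx. Their part in the levels of Pmch was not tested.

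In the cerebellum Pmch ranged from 2 to 25 counts, and brain was higher by 4.19 ± 0.79 (log2, adjusted p = 0.000227, edgeR), and by 2.60 ± 0.62 (adjusted p = 0.00303) without male brain replicate 1. Colon (6 to 21 counts) and ovary (14 to 19 counts) were also lower than brain, by 3.02 ± 0.75 (adjusted p = 0.000921) and 3.55 ± 1.00 (adjusted p = 0.00386). Without male brain replicate 1 these were 1.43 ± 0.60 (adjusted p = 0.0405) and 1.95 ± 0.75 (adjusted p = 0.0318). The 8 heart counts all came from female heart replicate 3. Testis held 84, 97 and 112 counts, a level of 4.35 ± 0.642 FPKM (SD, n = 3), and the difference from brain was within the spread (brain minus testis 0.81 ± 0.83, adjusted p = 0.39). Its direction turned without male brain replicate 1 (-0.78 ± 0.66, adjusted p = 0.30). Testis was above colon, its neighbour in the order of levels, by 2.21 ± 0.83 (adjusted p = 0.0205), in a contrast that called 71.9% of all genes. Exons of Pmch (10:88091072-88092375, plus strand) share 236 bases with Parpbp on the opposite strand, and whether reads were counted by strand is not given in the sources used here, so reads of the 2 genes may not have been told apart.

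Hcrt (11:100761069-100762931, minus strand) had 3 counts in the cerebellum, 1 in ovary and 0 in heart and colon. Its brain level of 0.198 ± 0.197 CPM (SD, n = 6) stood beside a cerebellar 0.0210 ± 0.0353 CPM (n = 6), with p = 0.0411 in a two-sided exact permutation test. The exact p was 0.0260 against heart, 0.0152 against colon, 0.0952 against ovary and 0.976 against testis, where the smallest p possible for ovary or testis was 0.0238. After Benjamini-Hochberg adjustment over these 5 exact tests none passed 0.05, with 0.0685 against cerebellum and 0.0649 against heart and colon. Testis had 3, 11 and 4 counts, a level of 0.197 ± 0.138 CPM (n = 3).

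Pomc, the precursor of ACTH, melanocortins and beta-endorphin, had 97, 47 and 82 counts in the female brain libraries and 12, 26 and 18 in the male ones. All 3 female brain libraries were above all 3 male ones, and the share of all genes that separate in this way was not counted. The male minus female difference was -2.03 ± 0.62 on the log2 scale, with an unadjusted p = 0.00301 and an adjusted p = 0.81 in edgeR over all genes, and DESeq2 gave an adjusted p = 0.0184. Without female brain replicate 1 the difference was -1.79 ± 0.68.

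That library had the highest Pomc, and it also held 288 counts of Gh and 380 of Prl, the growth hormone and prolactin genes of the anterior pituitary, against 0 to 11 and 0 to 7 counts in the other brain libraries. Of the 11 pituitary markers, 7 had counts in it, and Tbx19, the factor that defines POMC-producing pituitary cells, was at 0, as were Cga and Fshb. The sum over the list was 0.475 FPKM in female brain replicate 2 and 2.20 FPKM in female brain replicate 3. Female brain replicate 3, with 82 counts of Pomc, had 3 counts of Gh and 7 of Prl. The part of pituitary tissue in the Pomc levels was not tested beyond these values.

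**Figure D4:**
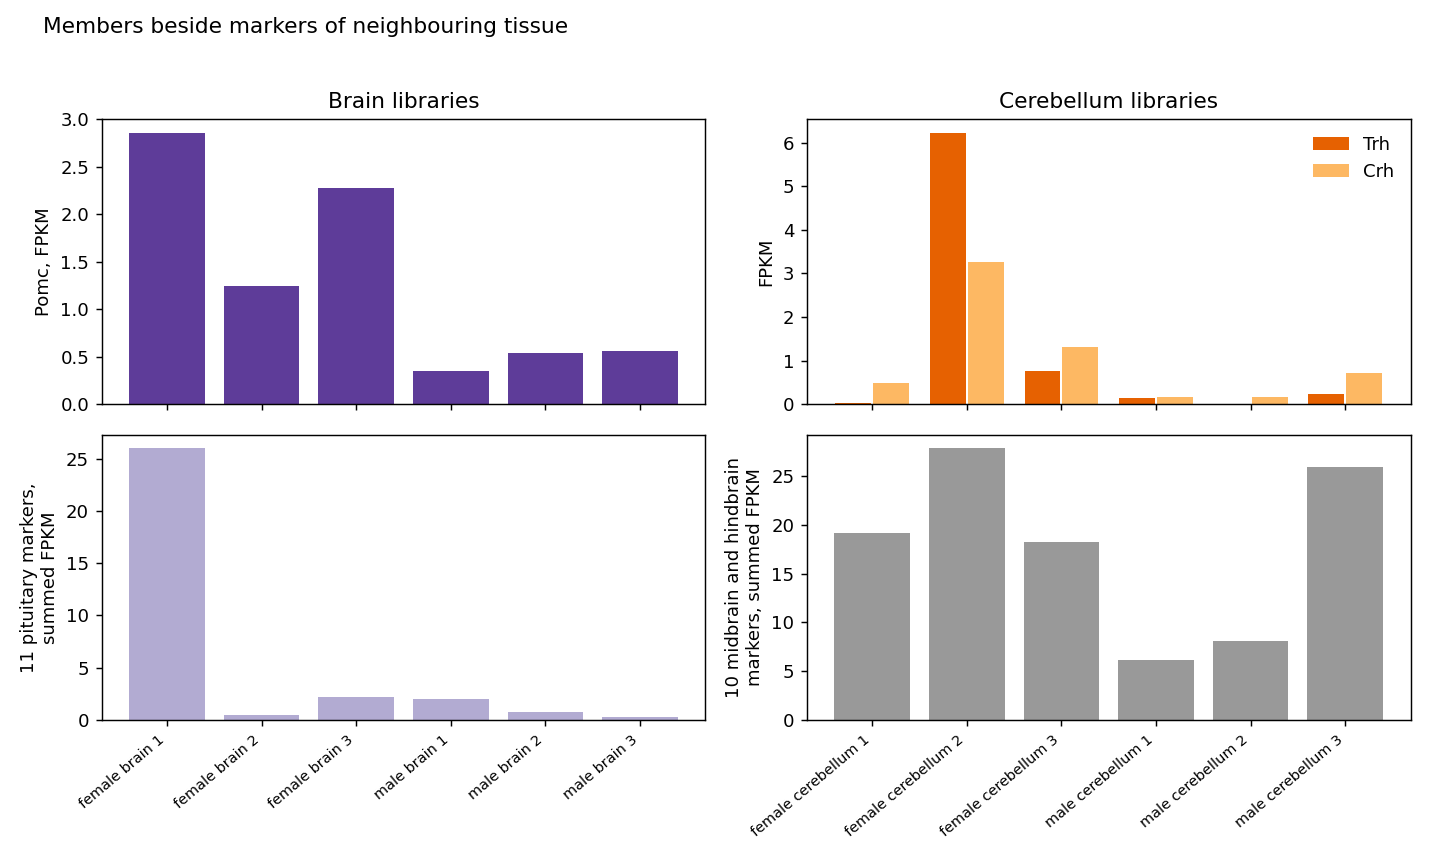
Left, Pomc (top) and the sum of 11 pituitary markers (bottom) in the 6 brain libraries; right, Trh and Crh (top) and the sum of 10 midbrain and hindbrain markers (bottom) in the 6 cerebellum libraries, all in FPKM on linear axes from 0. The pituitary sum of 26.0 FPKM stands alone in female brain 1, and Trh and Crh are highest in female cerebellum 2, at 6.22 and 3.26 FPKM.

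Testis had the highest mean of Pomc, with 91, 108 and 92 counts or 2.45 ± 0.191 FPKM (SD, n = 3), and brain was lower by 1.46 ± 0.49 on the log2 scale (brain minus testis -1.46, adjusted p = 0.00959). In that contrast 40.4% of all genes were lower in brain. Leaving out any 1 library kept the difference between -1.58 and -1.33. Brain and cerebellum (19 to 37 counts) differed by 0.31 ± 0.43 (adjusted p = 0.70). The cerebellum was above ovary by 1.85 ± 0.60 (adjusted p = 0.0107), in a contrast that called 53.5% of genes, and brain was above heart by 2.22 ± 0.56 (adjusted p = 0.00121), or by 2.76 ± 0.57 (adjusted p = 0.000148) without female heart replicate 3, and above colon by 3.34 ± 0.57 (adjusted p = 1.16e-05), or by 5.23 ± 0.82 (adjusted p = 5.38e-06) without female colon replicate 3. Of the 35 heart counts, 23 were in female heart replicate 3.

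Agrp, the inverse agonist of the melanocortin receptors, had 24, 16 and 22 counts in female brain and 12, 25 and 10 in male brain. Its tissue means ran from 0.384 FPKM in heart to 1.67 FPKM in ovary. No pair of neighbouring tissues in that order differed (adjusted p from 0.33 to 1.00), which does not test the ends. Heart minus ovary was -1.33 ± 0.63 (adjusted p = 0.094, edgeR). Brain minus ovary had an adjusted p of 0.17 and brain minus testis 0.25. Over 16 alternative fits of each, the lowest adjusted p was 0.0102 against ovary and 0.0490 against testis. Brain minus cerebellum was -0.77 ± 0.49 (adjusted p = 0.29), or -0.84 ± 0.33 with an adjusted p of 0.0497 where only the brain and cerebellum groups were fitted. The annotated Agrp gene spans 8:105566698-105637393 on the minus strand, through long transcripts that run past several other genes. It shares 114 exon bases on the same strand with the long non-coding gene Gm5914, so its counts cannot be assigned to the peptide transcript with certainty.

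Npy, whose peptide stimulates feeding from the arcuate nucleus and is made by many cortical interneurons, was the most abundant member. It had 621, 1575 and 988 counts in female brain and 672, 1138 and 760 in male brain, a range of 2.29-fold in CPM. Cerebellum held 361 to 655 counts, or 37.5 ± 8.45 FPKM (SD, n = 6). The ranges of brain and cerebellum overlapped, and the difference of 0.81 ± 0.35 missed the threshold (adjusted p = 0.098), although a fit of only these 2 tissues called it (0.73 ± 0.20, adjusted p = 0.00835). Cerebellum exceeded colon, the next tissue, by 6.85 ± 0.56 (adjusted p = 2.03e-10), where 66.1% of genes were called. All 23 heart counts were in female heart replicate 3. Colon ranged from 0 to 11 counts, testis had 2 in all and ovary none, where brain was at least 806-fold higher.

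Npy was closest over the 29 libraries to Gm10493 (Pearson r = 0.99), B3galt1 (0.98) and Gm13883 (0.98). For Pomc the closest genes were Prss50 (0.89), Lrrc23 (0.89) and 5031439G07Rik (0.89), and for Agrp they were Plk-ps1, Tmprss6 and Xkr5, all between 0.74 and 0.76. These correlations describe libraries of 6 tissues, in which any gene with the same tissue difference scores high.

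Trh, the precursor of thyrotropin-releasing hormone, had 134, 112 and 284 counts in female brain and 180, 333 and 81 in male brain. In the cerebellum, female replicate 2 had 221 counts and the other 5 libraries 0 to 29. Crh, which drives ACTH release in the stress response, had 50, 119 and 94 counts in female brain and 71, 116 and 54 in male brain, and again female cerebellum replicate 2 stood out, with 105 counts against 4 to 45. That library alone reached the range of the brain libraries, for both genes, in FPKM.

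Brain was above cerebellum by 3.21 ± 0.74 for Trh (log2, adjusted p = 0.00296) and 1.73 ± 0.47 for Crh (adjusted p = 0.0120). Without female cerebellum replicate 2 the differences were 4.49 ± 0.66 (adjusted p = 6.54e-05) and 2.19 ± 0.46 (adjusted p = 0.00279). The Crh call was lost with the leading digit of the library code as a replicate block (1.83 ± 0.63, adjusted p = 0.054). The 10 midbrain and hindbrain markers, all detected in it, summed to 27.8 FPKM in that library and to 6.19 to 25.9 FPKM in the other cerebellum libraries. Tph2, the serotonin-synthesis gene of raphe neurons, had 516 counts there and Hoxb3, a gene of the caudal hindbrain, 311. Male cerebellum replicate 3 had 487 counts of Tph2 and 198 of Hoxb3, with 8 counts of Trh and 22 of Crh. The part of neighbouring brainstem in these levels was not tested beyond these values.

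Both genes were nearly silent outside the nervous system. Trh was at 0 in heart and colon, where brain was at least 247-fold and 205-fold higher, had 1 count in ovary, and held 4 to 9 counts in the testis libraries. Brain was above testis by 4.73 ± 1.07 (adjusted p = 0.000627). Crh was at 0 in colon, ovary and testis, where brain was at least 93.2-fold, 70.0-fold and 88.9-fold higher, and had 6 counts in male heart. Cerebellum exceeded heart for Crh by 4.72 ± 0.89 (adjusted p = 0.000246), where 57.4% of genes were called. Closest to Crh over the 29 libraries were Gm17916 (Pearson r = 0.96), Htr1a (0.96), a serotonin receptor, and C030017B01Rik (0.95). Closest to Trh were AC102368.2 (0.93), Basp1 (0.93) and B230208B08Rik (0.93).

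Gnrh1, the precursor of the hormone that starts the reproductive axis, had 1, 13 and 31 counts in female brain and 11, 35 and 14 in male brain. Brain was above cerebellum (0 to 14 counts) by 2.22 ± 0.65 (log2, adjusted p = 0.0118), a call that rested on female brain replicate 3, since without it the difference was 1.67 ± 0.66 (adjusted p = 0.073). Ovary, colon and testis had means of 0.781, 0.768 and 0.589 FPKM against 0.935 FPKM in brain, and brain did not pass the test against any of them (adjusted p from 0.40 to 0.56). Brain minus heart was 1.43 ± 0.69 (adjusted p = 0.080), and 2.22 ± 0.75 (adjusted p = 0.0130) without female heart replicate 3, which held 16 of 24 heart counts. Without female brain replicate 1 it was 1.70 ± 0.63 (adjusted p = 0.0236). Closest to Gnrh1 over the 29 libraries were Zbtb34 (Pearson r = 0.72), Hgf (0.67) and Gm37588 (0.65).

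Against the other tissues, 7 of the 9 members tested were higher in brain than in heart, where 35.1% of all genes were, 7 of 9 than in colon, where 38.7% were, and 7 of 9 than in ovary, where 31.2% were. Agrp and Gnrh1 were the 2 not called in each. Against testis 5 were higher (Oxt, Avp, Npy, Trh and Crh), where 31.2% of genes were, and Pomc was lower. These comparisons share the brain libraries, and Oxt and Avp passed the filter on low counts only through those libraries.

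The 6 brain libraries differed widely in several of these genes. Of the 10 members, 6 had a mean of at least 50 counts there, and their ratio of highest to lowest CPM was 530 for Avp, 247 for Oxt, 45.2 for Pmch, 3.14 for Trh, 2.29 for Npy and 2.15 for Crh. All 6 reached 2, as did 13% of the 15337 genes with that many counts, and 3 reached 4, as did 1.38%. Those genes were not matched to the members by count, and low counts widen this ratio. With any 1 brain library left out 4 to 7 members reached 2 and 1 to 4 reached 4, the 1 being Pmch without female brain replicate 3, where Oxt and Avp had a mean under 50 counts. With a mean of 200 counts required only Npy was left, at a ratio of 2 but not 4. The median ratio over the 15337 genes with a mean of at least 50 counts was 1.43. With the lowest library at 1 count, the 95% counting interval was 44.0 to 9805 for Oxt and 94.7 to 20953 for Avp. Without female brain replicate 1 the ratios were 46.9 for Oxt and 71.7 for Avp. For Pmch the ratio was 29.6 without female brain replicate 2 and 23.3 without male brain replicate 1.

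Over all 29 libraries the genes closest to Pmch were Grhl1 (Pearson r = 0.84), Myo9a (0.82) and Dynll1 (0.81). Over the 6 brain libraries, and among genes with at least 50 counts on average, Pmch was closest to Ifit2, 4930414N06Rik and 4930412C18Rik (Pearson r from 0.98 to 0.99). Oxt was closest to Anapc10, Zmat2 and Sdhaf1 (0.99 to 1.00), and Avp to 1700051O22Rik, Psmb2 and Nkap (0.98 each). With 6 points and 15337 genes, values of this size are a description of these libraries only.

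Comparing males with females asked whether the peptide genes differed by sex. No member was called in brain, where 0.0368% of genes were, in cerebellum, where 0.0301% were, or in colon, where 0.324% were, and none was called in the difference of the brain and cerebellar sex effects, where 0% of genes were. At an unadjusted p under 0.05 edgeR gave 1 of 9 members in brain (Pomc), 2 in cerebellum (Trh and Crh), 0 in colon and 3 in the difference (Pomc, Trh and Crh). The shares of all genes at that p were 4.83%, 3.06%, 8.85% and 3.98%. DESeq2 called Pomc in brain, along with 0.174% of all genes, and no member in the other 3. In the cerebellum, male minus female was -4.13 ± 1.16 for Trh and -2.21 ± 0.69 for Crh, each with an adjusted p of 1. Without female cerebellum replicate 2 these were -1.57 ± 0.99 and -1.30 ± 0.67.

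Receptors of 6 of the peptide systems were higher in brain than in cerebellum. Of 23 genes for receptors and binding proteins 21 were tested, 11 were higher in brain and 1 lower, with a median log2 difference of 1.59. Beside these and the list counts that follow stand the shares of all genes, 15.3% higher and 10.8% lower, and a median of 0. For Npy, whose own level was not called, 3 receptors were higher, Npy5r by 3.07 ± 0.40 (log2), Npy2r by 2.64 ± 0.41 and Npy1r by 2.14 ± 0.20. Mchr1, the receptor for the Pmch peptide, had 0.345 ± 0.153 FPKM in cerebellum and 3.78 ± 0.562 FPKM in brain (SD, n = 6 each), a log2 difference of 3.59 ± 0.50 (adjusted p = 7.18e-06).

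The other receptors called higher were Trhr2 (3.30 ± 0.63) and Trhr (1.67 ± 0.48) for TRH, Oxtr (1.70 ± 0.56) and Avpr1a (1.59 ± 0.43), and the melanocortin receptors Mc4r (1.98 ± 0.45) and Mc3r (1.62 ± 0.57). Crhbp, which binds and buffers CRH, was higher by 2.31 ± 0.48, while Crhr1, the main CRH receptor, was lower in brain by 0.99 (log2 difference -0.99 ± 0.26, adjusted p = 0.00698), at 2.68 FPKM against 5.84 FPKM in cerebellum. Hcrtr1, Hcrtr2, Avpr2, Mc1r, Mc2r, Mc5r, Npy4r, Npy6r and Crhr2 were not called, and Avpr1b and Gnrhr did not pass the filter. Oxtr had its highest mean in ovary, 8.43 ± 3.66 FPKM (SD, n = 3), then testis at 7.25 FPKM, against 1.11 FPKM in brain. Avpr1a was highest in testis, at 2.97 FPKM against 0.265 FPKM in brain.

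All 13 genes of prohormone processing and granules were tested, and 9 were higher in brain than cerebellum and 2 lower, with a median of 0.68. The share that was lower, 2 of 13, was near the 10.8% of all genes. Pcsk2, a convertase that cuts precursors at paired basic residues, was higher by 2.33 ± 0.18, Cpe, the carboxypeptidase that trims the products, by 1.55 ± 0.15, Pam, which amidates peptide ends, by 1.33 ± 0.13, and Qpct, which forms pyroglutamate at peptide ends, by 1.18 ± 0.21. Furin, a convertase of the general secretory pathway (-0.81 ± 0.15), and Scg3, a granule protein (-0.77 ± 0.22), were lower.

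Of 34 other neuropeptide precursors 28 were tested, and 17 were higher in brain and 2 lower, against 15.3% and 10.8% of all genes, with a median log2 difference of 1.73. The largest differences were in Prok2 (5.33 ± 0.72), a circadian output signal, Tac2 (5.13 ± 0.55), the neurokinin B precursor, Ucn3 (4.85 ± 0.95), a ligand of CRH receptors, and Cort (4.58 ± 0.58), a relative of somatostatin. Of the 16 hypothalamic transcription factors 12 were tested, and 7 were higher in brain and 1, Nkx2-2, lower, against the same shares of all genes, with a median of 3.05. Isl1, a factor of arcuate and striatal neurons, was higher by 5.10 ± 0.70. Fezf1 and Six6 were called with all cerebellum libraries at 0, from 6 to 30 counts in each brain library for Fezf1. Nkx2-1, which patterns the ventral hypothalamus, had 10, 51 and 57 counts in female brain, 52, 63 and 48 in male brain, and 0 or 1 in each cerebellum library. Sim1 and Otp, which are needed for Oxt, Avp, Crh and Trh neurons, did not pass the test between the tissues. Otp had 4 to 98 counts in brain and 6 to 116 in cerebellum.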

How the data were processed

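Total RNA was depleted of rRNA and sequenced as strand-specific (dUTP) libraries. The authors deposited whole-number counts per gene, without normalization, on an annotation of GRCm38 (mm10) that joins Iso-seq loci to ENSEMBL genes. The labels' processing notes name FastQC 0.11.8, MultiQC 0.9, HISAT2 2.0.5 and featureCounts 1.6.3, and per the study's methods reads with several placements were dropped. Whether reads were counted by strand is not given in the sources used here. Symbols were matched to Iso-seq loci through the deposited map, exons were taken from the deposited annotation, and the Oxt and Avp transcripts from GENCODE M21. No other column of per-sample values was present, and Iso-seq entered only through the annotation.

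CPM used the library's total count, and FPKM divided CPM by the kilobases of a gene's merged exons. Differences were tested with edgeR 4.0.16 (quasi-likelihood, TMM, filterByExpr by group) in R 4.3.3, as a single model of the 29 libraries with a term for each group of tissue and sex, where tissue means weight both sexes equally. Benjamini-Hochberg adjustment covered the 29911 genes tested, and calls needed an adjusted p under 0.05. The scripts were tested on simulated counts. Hcrt was tested alone by exact permutation of CPM (scipy 1.17.1). A count of 0 was given a limit of 3 counts, and intervals are exact at 95% and cover counting error only. Nothing in the sources used here says that libraries of a group came from separate animals, so p-values measure the spread between these libraries, which may be technical.

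All 10 members are named. From each gene list the text names up to 4 genes with the largest log2 difference among those called between brain and cerebellum, and every receptor called. For each member it names the 3 genes most correlated with it in log2 CPM (prior count 2) over all libraries and, for Pmch, Oxt and Avp, over the brain libraries (Hcrt had too few counts). Single markers named beside a member, Furin, Scg3, Nkx2-2, Sim1 and Otp were chosen after their values were seen. The members and lists were chosen with earlier results of these data known. Alternatives were DESeq2 1.42.0, its size factors in edgeR, library totals alone, no filter, a replicate block, only the groups compared, and leaving out each library. Limits and ratios without single brain libraries, and the Hcrt mean without them, were added after seeing the data.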

Additional observations from a re-analysis of the deposited data

Results flagged for a closer look

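Within brain, cerebellum, heart and colon, the members with a mean of at least 10 counts were searched for a library far from the others by Dixon's criterion, which gave 17 sets of 6 libraries, none in heart, where no member reached that mean, and 3 sets had such a library. For normally distributed values chance gives about 1 in 20, and the rate for low counts in sets that share libraries was not measured. Avp was 34.6 FPKM in female brain replicate 3, and the next brain library had 5.53 FPKM. Trh was 6.22 FPKM in female cerebellum replicate 2, and the next cerebellum library had 0.774 FPKM. Crh was 3.26 FPKM in the same library, and the next had 1.32 FPKM.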

How the results depend on the processing

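No called difference changed direction. Of 1303 values of single members under an alternative, 8 gained a call and 3 lost it, namely Gnrh1 and Crh against cerebellum and Avp against testis. Leaving out 1 library gave 5 to 6 members called against cerebellum, 7 to 8 against heart, 7 against colon and ovary, 6 against testis and 0 by sex. DESeq2 called 1 member by sex in brain. The number reaching a brain ratio of 2 was 1 where a mean of 200 counts was required, as only Npy was left, with 0 reaching 4 and 6.30% of genes reaching 2. Leaving out 1 brain library gave 1 to 4 members at a ratio of 4 and 8.23% to 12.0% of genes at 2. With the length of the longest transcript Agrp was 0.878 FPKM in brain. Library totals alone moved the median log2 difference of all genes to 0.62 against heart (0.22 with TMM) and to -0.23 against ovary (0 with TMM), and the share of higher genes among those called to 44.7% against cerebellum (58.5%), 71.3% against heart (59.6%) and 40.3% against ovary (54.9%).

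Same-numbered brain and cerebellum libraries had correlations of their deviations from -0.030 to 0.085, which does not show a pairing by number. In females each brain library correlated best with its own number and in males 1 of 3 did, a hint from the data only, and other tissues were not compared. With the label number as a replicate block 6 members were called against cerebellum, and with the leading digit of the library code 5, without Crh (adjusted p = 0.054).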
